A study of Rattus norvegicus with 6 samples.

Results

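The 40 genes described here are the core machinery and the common markers of the cell division cycle, read in rat synovial tissue with adjuvant arthritis. They were listed by name, 8 of G1, 10 of S phase, 19 of G2 and mitosis (G2/M) and 3 inhibitors of cyclin-dependent kinases, and every probe carrying such a name was taken (Cdk1 under its older name Cdc2). All 40 were found, on 62 of the 41012 probes, among 16417 genes with a settled symbol. Synovial tissue came from the hind ankle joints of male rats at 8 weeks. All rats received Freund's complete adjuvant, at 0.1 ml a day for 18 days. The arthritis group (3 arrays) was given saline daily for 14 days, and the triptolide group (3 arrays) received the plant diterpenoid triptolide at 0.4 mg/kg daily over the same period. No healthy group was analysed here. The labels do not state that replicates were separate animals, so p-values reflect only how far these samples spread, and part of that may be technical.

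A resting cell enters the cycle when D-type cyclins bind Cdk4 or Cdk6 and, with cyclin E and Cdk2, release E2F transcription factors from the retinoblastoma protein. E2F then drives the S phase genes, whose products license and copy DNA and make deoxynucleotides, and a later wave, set by the DREAM complex, B-Myb and FoxM1, supplies the kinases, cyclins and motors of mitosis. In inflamed synovium, dividing cells can be fibroblasts of the thickened lining, endothelial cells or infiltrating leukocytes, and RNA of whole tissue does not tell them apart.

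Sites of both waves were found among the promoters of the S and G2/M genes, and the ones shown here are from G2/M and Mcm genes that are followed in the results. Promoter sequences of RefSeq, on build GRCr8, were matched for 31 of the 40 genes (4 of G1, 8 of S, 16 of G2/M and 3 inhibitors), each from 250 bases before to 50 bases after the annotated start. Those of Ccnd1, Ccnd2, Cdk6, Ccne2, Mcm4, Rrm2, Ccna2, Aurkb and Ube2c were not analysed here. Both strands were searched for the cell cycle homology region (CHR, TTTGAA), the CCAAT box (CCAAT) and a strict E2F site (TTTCCCGC, TTTCGCGC, TTTGCCGC or TTTGGCGC). A CHR and a CCAAT box can overlap by 1 base, and an E2F match can overlap another on the opposite strand. In the G2/M promoters below, each given 5′ to 3′ on the gene's strand as the 200 bases before the start, capitals mark CHR and CCAAT matches.
Mki67 promoter (chr1:199952594-199952793, GRCr8, minus strand): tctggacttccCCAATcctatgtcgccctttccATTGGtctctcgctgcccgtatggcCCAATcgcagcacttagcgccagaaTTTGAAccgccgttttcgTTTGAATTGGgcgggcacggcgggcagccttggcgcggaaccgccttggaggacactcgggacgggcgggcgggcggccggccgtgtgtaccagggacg
Ccnb2 promoter (chr8:79981659-79981858, GRCr8, minus strand): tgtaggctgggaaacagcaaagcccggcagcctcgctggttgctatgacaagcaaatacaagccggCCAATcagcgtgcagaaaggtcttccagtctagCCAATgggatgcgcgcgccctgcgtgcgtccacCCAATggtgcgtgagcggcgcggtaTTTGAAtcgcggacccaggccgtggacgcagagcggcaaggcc
Cdk1 promoter (chr20:19265093-19265292, GRCr8, plus strand): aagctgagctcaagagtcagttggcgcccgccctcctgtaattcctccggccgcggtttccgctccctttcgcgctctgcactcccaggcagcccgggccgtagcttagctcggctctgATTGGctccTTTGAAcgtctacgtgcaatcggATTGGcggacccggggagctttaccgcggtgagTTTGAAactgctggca
Cdc20 promoter (chr5:137255800-137255999, GRCr8, minus strand): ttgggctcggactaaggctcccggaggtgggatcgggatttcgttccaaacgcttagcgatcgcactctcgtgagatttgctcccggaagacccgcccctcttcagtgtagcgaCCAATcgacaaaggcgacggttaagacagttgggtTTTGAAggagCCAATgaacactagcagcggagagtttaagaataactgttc

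In the Mcm promoters below, given in the same way, capitals mark only E2F matches.
Mcm5 promoter (chr19:13488613-13488812, GRCr8, plus strand): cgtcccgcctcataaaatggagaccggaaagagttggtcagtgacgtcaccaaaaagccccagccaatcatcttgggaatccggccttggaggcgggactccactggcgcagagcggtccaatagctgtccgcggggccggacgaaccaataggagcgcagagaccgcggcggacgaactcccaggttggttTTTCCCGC
Mcm6 promoter (chr13:42404353-42404552, GRCr8, minus strand): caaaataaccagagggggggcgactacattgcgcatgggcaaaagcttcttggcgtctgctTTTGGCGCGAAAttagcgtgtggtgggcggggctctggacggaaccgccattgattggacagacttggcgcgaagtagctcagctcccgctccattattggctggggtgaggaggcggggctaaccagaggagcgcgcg
Mcm7 promoter (chr12:22163179-22163378, GRCr8, minus strand): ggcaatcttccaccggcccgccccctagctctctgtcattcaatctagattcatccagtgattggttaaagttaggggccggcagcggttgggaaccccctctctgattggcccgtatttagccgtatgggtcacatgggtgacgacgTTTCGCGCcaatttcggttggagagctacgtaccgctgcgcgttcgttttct
Mcm2 promoter (chr4:122918095-122918294, GRCr8, minus strand): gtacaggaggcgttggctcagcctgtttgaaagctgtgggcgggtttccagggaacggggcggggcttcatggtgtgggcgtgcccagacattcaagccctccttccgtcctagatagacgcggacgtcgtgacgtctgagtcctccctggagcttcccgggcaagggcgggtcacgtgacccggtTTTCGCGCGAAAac

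The CHR stood in 11 of 16 G2/M promoters (68.8%) and in 1 of 8 S phase promoters, that of Mcm2. It was held by 18.3% of all 33469 promoters of the RefSeq set, and of the 10395 promoters of genes with a tested probe 12.3% did. E2F sites had the opposite distribution, in 6 of 8 S phase promoters (75%) and 1 of 16 G2/M promoters, that of Cdk1. In all promoters the E2F share was 2.14%, and in those of genes with a tested probe 3.88%. The S phase promoters with an E2F site were those of Mcm2, Mcm3, Mcm5, Mcm6, Mcm7 and Tyms. Neither a CHR nor an E2F site was in the 4 G1 or the 3 inhibitor promoters. The CCAAT box was in 12 of 16 G2/M and 6 of 8 S phase promoters, against 37.5% of all promoters. No match says only that these letters are not in the window.

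**Figure D1:**
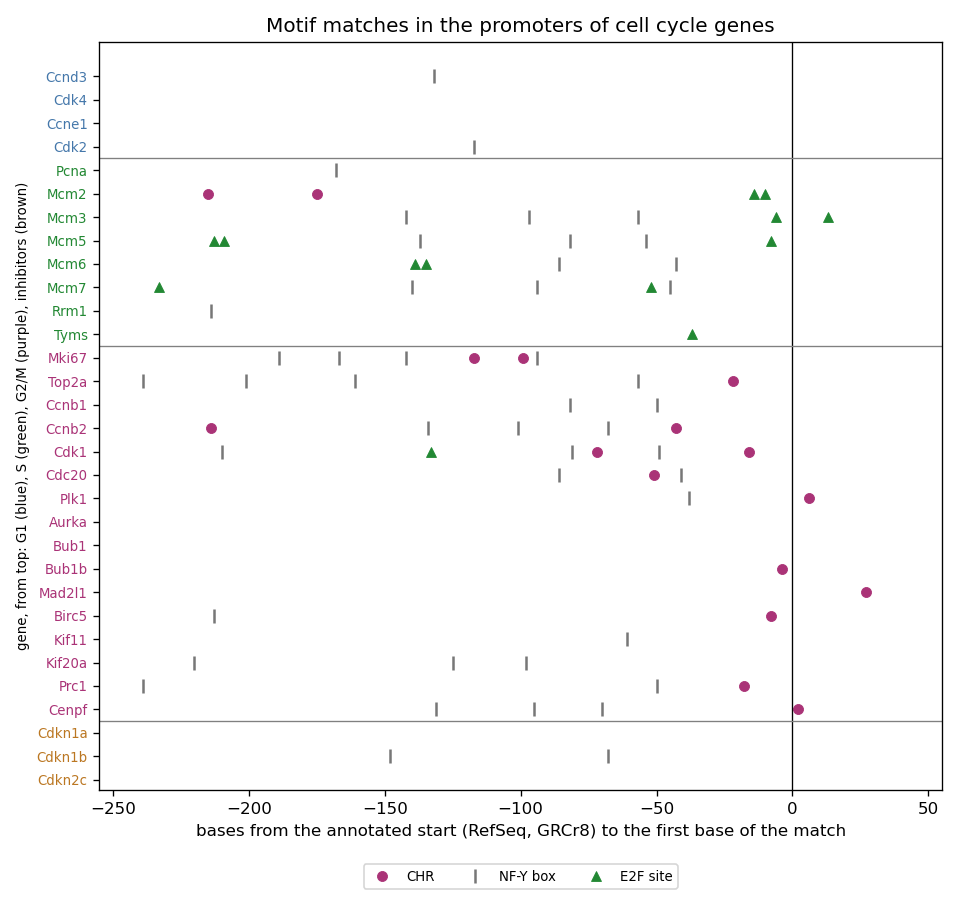
Motif matches in the 31 promoters, with 1 row per gene in the order G1, S, G2/M and inhibitors and the horizontal axis in bases from the annotated start. CHR matches (circles) lie mostly in the G2/M rows, E2F matches (triangles) mostly in the S rows, and CCAAT boxes (bars, labelled as the box bound by NF-Y) in both.

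Each array read 43379 non-control spots, of which 59.6% to 65.1% were well above background, and no spot was saturated. Levels are log2 intensity relative to the array's own 75th percentile, so that 0 is that percentile, and levels of different probes cannot be ranked against each other. All 12 synovial fibroblast markers were well above background on all 6 arrays. Arthritis 2 and triptolide 2 stood apart from the other arrays in cell type markers. The summed linear level of the 13 skeletal muscle markers on the array, of which 12 were tested, was 6108 in arthritis 2. It was 5.32 and 5.24 in arthritis 1 and 3, and 109, 4.14 and 94.2 in triptolide 1 to 3. The 8 Schwann cell markers summed to 261 in triptolide 2, against 56.4 and 58.9 in triptolide 1 and 3 and 56.9 to 94.0 in arthritis. The 6 smooth muscle markers summed to 128 in arthritis 2 and 117 in triptolide 2, and to 18.6 to 26.0 on the other 4 arrays. Such a sum is carried by the brightest probes. With each gene centred on its 6-array mean, these markers averaged 0.45 in arthritis 2 and 2.37 in triptolide 2. On the other 4 arrays that average was -1.25 to -0.14. Triptolide 2 and 3 were on slide 2 (scan 2), and the other 4 arrays on slide 1 (scan 1).

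Triptolide and arthritis tissue did not differ detectably in these genes. None of the 40 passed an adjusted p of 0.05 (limma, Benjamini-Hochberg over 25776 probes), and none reached an unadjusted p of 0.05. Over all tested probes 0% passed the adjusted threshold, with a lowest adjusted p of 0.344, and 835 (3.24%) had an unadjusted p under 0.05 (2.01% higher and 1.23% lower). The adjusted p of the 61 tested member probes lay between 0.994 and 0.999. All 40 genes were well above background on all 6 arrays, so the filter on dim probes removed no gene. Relative to arthritis, 15 genes were higher and 25 lower, with a median log2 difference of -0.076 beside 0.023 over all tested probes. In bulk tissue, fewer cells of a type and less RNA per cell cannot be told apart.

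The intervals of the differences were wide. The median half-width of the 95% interval of a difference was 0.73 on the log2 scale, and the widest was 1.06. For 27 of the 40 genes the interval excluded a 2-fold difference in either direction. For the other 13 it did not, and 9 of those were G2/M genes. Leaving out single arrays moved the median of the 40 genes from -0.30 (without arthritis 2) to 0.12 (without triptolide 2). With slide as a block it was 0.15, a value in which triptolide 1 alone stands for the treated side.

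**Figure D2:**
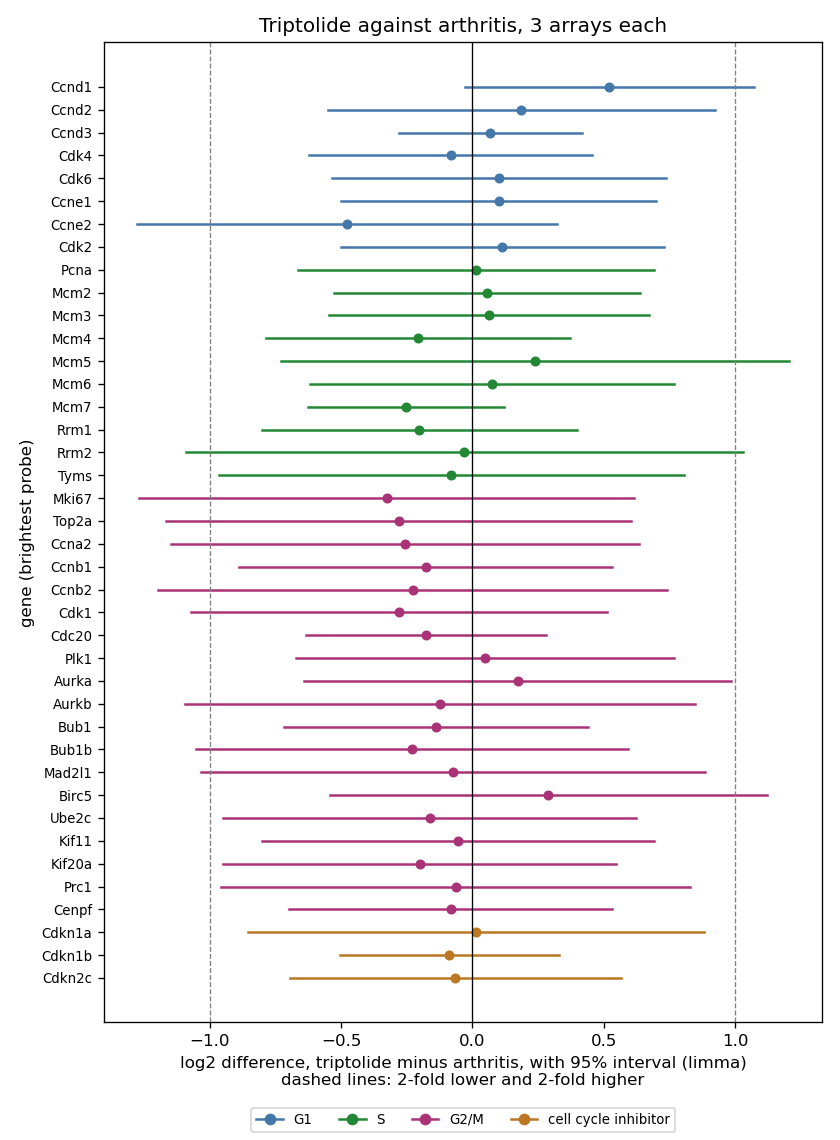
Log2 difference, triptolide minus arthritis, for each of the 40 genes (point, brightest probe) with its 95% interval from limma (line), coloured by phase, with dashed lines at 2-fold. Every interval crosses 0, and Ccnd1 has the highest difference (0.52) while Ccne2 has the lowest (-0.48).

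The G1 genes encode the cyclins and kinases of cell cycle entry. Of the 8, 6 were higher and 2 lower with triptolide, with a median difference of 0.10 that was -0.057 when only arrays 1 and 3 of each group were used. Cyclin D1 (Ccnd1), the mitogen-responsive partner of Cdk4 and Cdk6, stood at 4.05, 3.52 and 3.96 in arthritis and at 4.54, 4.52 and 4.04 with triptolide. Arthritis 2 was the lowest array, and the groups overlapped only through arthritis 1 and triptolide 3. The group means were 3.85 ± 0.29 (SD, n = 3) and 4.37 ± 0.29 (SD, n = 3), a difference of 0.52 (SE 0.23), or 1.44-fold, with a limma unadjusted p of 0.059 and an adjusted p of 0.994.

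A second Ccnd1 probe gave the same direction. It read 3.33, 2.88 and 3.17 in arthritis and 3.77, 3.99 and 3.58 with triptolide, so that the groups did not overlap. Its difference was 0.65 (SE 0.19), with a limma unadjusted p of 0.013 and an adjusted p of 0.994. It was the only one of the 61 tested member probes with an unadjusted p under 0.05, a share below the 3.24% of all probes. The probes lie at chr1:205359847-205359906 (the brightest) and chr1:205357582-205357641 of build rn4. Across the 17 other settings and array choices the difference at Ccnd1 ran from 0.23 (with arrays weighted by quality) to 0.70 (slide as a block). It passed an unadjusted p of 0.05 without triptolide 3 (0.69, limma unadjusted p = 0.030) and with its probes averaged (0.59, limma unadjusted p = 0.028).

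The other D-type cyclins differed less. Cyclin D2 (Ccnd2) stood at 1.84, 1.28 and 1.30 in arthritis and at 1.37, 2.24 and 1.36 with triptolide. Triptolide 2 alone was high, and the difference of 0.19 (SE 0.30) became -0.20 with arrays 1 and 3 only. Cyclin D3 (Ccnd3) lay within a range of 0.28 over the 6 arrays, at 0.80, 0.58 and 0.73 in arthritis and 0.71, 0.87 and 0.75 with triptolide. Its difference was 0.067 (SE 0.14), and it was 0.40 with normexp background correction (limma unadjusted p = 0.0497), so that the size depends on that step.

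Cdk4, the catalytic partner of the D-type cyclins, read 2.52, 1.94 and 2.50 in arthritis and 2.34, 1.99 and 2.37 with triptolide. The array with the lowest value in each group was the one numbered 2, and the difference was -0.083 (SE 0.22). Cdk6, its relative, differed by 0.10 (SE 0.26), cyclin E1 (Ccne1) by 0.10 (SE 0.25) and Cdk2, the kinase of cyclin E, by 0.11 (SE 0.25). All 3 were lowest in arthritis 2.

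Cyclin E2 (Ccne2) departed from this. It read -2.27, -1.99 and -2.27 in arthritis and -2.09, -3.35 and -2.52 with triptolide, with arthritis 2 highest and triptolide 2 lowest of the 6 arrays. The difference of -0.48 (SE 0.33) shrank to -0.034 with arrays 1 and 3 only. Without triptolide 1 it was -0.76, with a limma unadjusted p of 0.0495, and without triptolide 2 it was -0.13. Its second probe gave -0.68 (SE 0.29), with -3.55, -3.59 and -3.63 in arthritis and -3.98, -4.90 and -3.93 with triptolide, groups that did not overlap.

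The S phase genes hold the Mcm2 to Mcm7 subunits of the replicative helicase, the sliding clamp Pcna, both subunits of ribonucleotide reductase (Rrm1 and Rrm2) and thymidylate synthase (Tyms). Of these 10, 5 were higher and 5 lower with triptolide, with a median difference of -0.0084. The median was -0.20 without arthritis 2, 0.23 without triptolide 2 and 0.30 with slide as a block. Pcna read 3.45, 2.80 and 3.48 in arthritis and 3.57, 2.83 and 3.36 with triptolide. Its groups covered the same range, with arthritis 2 and triptolide 2 low, and its difference was 0.014 (SE 0.28), with a 95% interval from -0.66 to 0.69.

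Most of the helicase subunits followed Pcna. Mcm5 read -2.83, -4.07 and -2.86 in arthritis and -2.90, -3.48 and -2.66 with triptolide, a difference of 0.24 (SE 0.40). Mcm4 read -2.45, -2.93 and -2.40 in arthritis and -2.53, -3.16 and -2.72 with triptolide, a difference of -0.21 (SE 0.24). The arrays numbered 2 were again the low ones in both groups. The differences at Mcm2, Mcm3 and Mcm6 were 0.055 (SE 0.24), 0.063 (SE 0.25) and 0.074 (SE 0.29).

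Mcm7 was the only one of the 40 genes whose groups did not overlap, beside 8.64% of all tested probes and 8.51% of tested genes. It read -0.63, -0.43 and -0.77 in arthritis and -0.92, -0.88 and -0.80 with triptolide, and was the one S phase gene that was highest in arthritis 2. The means were -0.61 ± 0.17 (SD, n = 3) and -0.87 ± 0.06 (SD, n = 3), a difference of -0.25 (SE 0.15), or 0.84-fold, with a limma unadjusted p of 0.149 and an adjusted p of 0.994. With normexp background correction the difference changed sign, to 0.10, and its groups overlapped. In the authors' deposited table of 167 rows Mcm7 was the only member, with log2 values of 7.70, 7.89 and 7.56 in arthritis and 7.42, 7.41 and 7.53 with triptolide. The Mcm7 probe and that of Mki67, the member most used to score proliferation, are each placed on rn4 over a span longer than their 60 bases. An annotation of that build was not used here. They are printed because the per-array values given for these genes were read on them.
Mki67 probe (chr1:195310355-195313039, rn4, minus strand): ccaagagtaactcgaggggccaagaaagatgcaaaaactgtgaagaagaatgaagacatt
Mcm7 probe (chr12:17608669-17609371, rn4, minus strand): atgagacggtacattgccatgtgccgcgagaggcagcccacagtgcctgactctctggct

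For the genes of deoxynucleotide synthesis, the range over the 6 arrays was 0.83 at Rrm1, 1.42 at Rrm2 and 1.15 at Tyms. The median range was 0.76 over all tested genes, 0.80 over S phase genes and 1.10 over G2/M genes. Rrm1 read -0.63, -0.84 and -0.54 in arthritis and -0.63, -1.37 and -0.62 with triptolide, with triptolide 2 low and a difference of -0.20 (SE 0.25). Its other probes gave 0.29 (SE 0.18), with groups that did not overlap, and 0.047 (SE 0.26), so its direction was not settled. The differences at Rrm2 and Tyms were -0.031 (SE 0.44) and -0.080 (SE 0.37).

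The G2/M genes are those of mitotic entry, the spindle and chromosome separation. Of the 19, 16 were lower and 3 higher, against 46.1% of all tested probes and 44.2% of tested genes below 0, with a median difference of -0.16 and none past a threshold. The median was above 0 without triptolide 2 (0.081) and with slide as a block (0.12). It was below 0 with any other single array left out, down to -0.36 without arthritis 2. With arrays 1 and 3 of each group it was -0.14, with 15 lower and 4 higher.

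Mki67, which encodes the proliferation marker Ki-67, read 2.30, 1.47 and 2.26 in arthritis and 2.10, 0.94 and 2.01 with triptolide. The array numbered 2 was the lowest in each group, and the remaining arrays lay within 2.01 to 2.30. The means were 2.01 ± 0.47 (SD, n = 3) and 1.68 ± 0.65 (SD, n = 3), a difference of -0.33 (SE 0.39), or 0.80-fold, with a 95% interval from -1.27 to 0.62. A second Mki67 probe gave -0.039 (SE 0.38).

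Topoisomerase II alpha (Top2a), which untangles replicated chromosomes, read 0.014, -0.66 and 0.024 in arthritis and -0.084, -1.21 and -0.17 with triptolide. Its difference was -0.28 (SE 0.37), and a second probe gave 0.040 (SE 0.29). Cdk1, the kinase that drives entry into mitosis, read 3.58, 2.90 and 3.70 in arthritis and 3.45, 2.55 and 3.34 with triptolide, a difference of -0.28 (SE 0.33). For both genes the groups overlapped because arthritis 2 lay below triptolide 1 and 3.

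The cyclins that activate Cdk1 gave differences of -0.26 (SE 0.37) at Ccna2, -0.18 (SE 0.29) at Ccnb1 and -0.23 (SE 0.40) at Ccnb2. Cdc20, which activates the anaphase-promoting complex, had the smallest range over arrays of the G2/M genes, 0.62. It read 0.74, 0.36 and 0.60 in arthritis and 0.50, 0.13 and 0.55 with triptolide. Its difference was -0.18 (SE 0.19), and it was between -0.28 and -0.047 in all 17 other settings and array choices. Ube2c, the ubiquitin-conjugating enzyme of that complex, differed by -0.16 (SE 0.33).

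Among the spindle checkpoint genes, which hold back anaphase until chromosomes are attached, Bub1 differed by -0.14 (SE 0.24), Bub1b by -0.23 (SE 0.34) and Mad2l1 by -0.072 (SE 0.40). A further Bub1b probe was not well above background on any array and was not tested. Of the mitotic kinases, Plk1 differed by 0.048 (SE 0.30), Aurka by 0.17 (SE 0.34) and Aurkb by -0.12 (SE 0.40). Plk1, Aurka and Birc5 were the 3 G2/M genes with a difference above 0.

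Birc5 encodes survivin, a subunit of the chromosomal passenger complex. It read 0.18, -0.65 and 0.68 in arthritis and 0.38, 0.18 and 0.52 with triptolide, so that arthritis 2 alone was low. Its difference of 0.29 (SE 0.34) became -0.069 without arthritis 2. The motors and spindle proteins Kif11, Kif20a, Prc1 and the centromere protein Cenpf differed by -0.056 (SE 0.31), -0.20 (SE 0.31), -0.063 (SE 0.37) and -0.083 (SE 0.25).

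**Figure D3:**
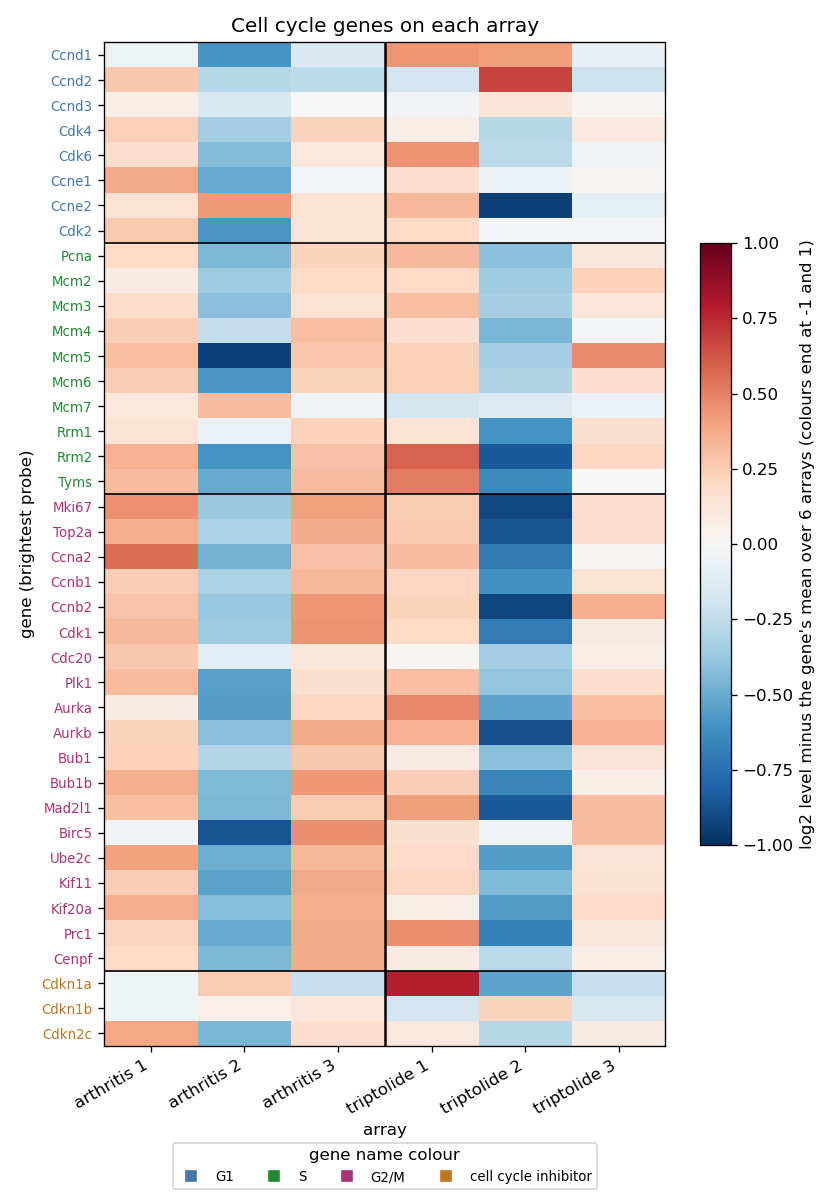
Level of each of the 40 genes (rows, brightest probe, grouped by phase) on each of the 6 arrays (columns), as log2 level minus the gene's mean over the arrays. The columns of arthritis 2 and triptolide 2 are the lowest of their groups through 28 of the 29 S and G2/M rows, with Mcm7 as the exception, and the same holds for 4 of the 8 G1 rows and 1 of the 3 inhibitor rows.

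The arrays of a group differed from each other in a regular way in S and G2/M genes. In 28 of the 29 S and G2/M genes, all but Mcm7, arthritis 2 was the lowest arthritis array and triptolide 2 the lowest triptolide array. The same held for 27.9% of all tested probes and 31% of all tested genes, for 4 of the 8 G1 genes and for 1 of the 3 inhibitors. Across G2/M genes, arthritis 2 lay below the mean of arthritis 1 and 3 by a median log2 difference of -0.74, and triptolide 2 below triptolide 1 and 3 by -0.82. For S phase genes these medians were -0.62 and -0.60, and for G1 genes -0.53 and -0.14. Over all tested genes they were -0.20 and -0.062. The summed linear level of the 19 G2/M genes, in units of the array's 75th percentile, was 43.1, 26.0 and 43.8 in arthritis and 39.9, 22.6 and 37.9 with triptolide.

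With each gene centred on its mean over the 6 arrays, triptolide 2 stood at -0.60 for G2/M, -0.44 for S and -0.04 for G1. In arthritis 2 the same values were -0.44, -0.38 and -0.31. The G1 genes that were not low in triptolide 2 were Ccnd1, Ccnd2 and Ccnd3, which on triptolide 2 stood above the mean of triptolide 1 and 3 by 0.23, 0.88 and 0.14.

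The means of T and NK cell, B and plasma cell, macrophage, neutrophil and fibroblast markers were also lowest within each group on arthritis 2 and triptolide 2, and those of endothelial markers were not. The 13 T and NK cell markers, centred in the same way, stood at 0.26, -0.67 and 0.40 in arthritis and at 0.41, -0.94 and 0.54 with triptolide. Macrophage markers (10 genes) stood at 0.04, -0.37 and 0.29 in arthritis and 0.12, -0.50 and 0.43 with triptolide, and fibroblast markers (12 genes) at 0.29, -0.56 and 0.47 and at -0.01, -0.28 and 0.08. As summed linear levels, all 14 T and NK cell markers on the array, tested or not, were 25.3, 11.2 and 26.7 in arthritis. With triptolide these sums were 24.8, 10.3 and 27.1. Neutrophil markers (6 genes) stood at -0.33, -0.47 and 0.14 in arthritis and 0.64, -0.33 and 0.35 with triptolide, and the 3 tested B and plasma cell markers at 0.50, -0.83 and 0.33 and at -0.23, -0.30 and 0.52. Endothelial markers (10 genes) were highest on triptolide 2, at 0.03, -0.17 and -0.07 in arthritis and -0.18, 0.79 and -0.41 with triptolide. The part of cell makeup in the low values on arthritis 2 and triptolide 2 was not tested.

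**Figure D4:**
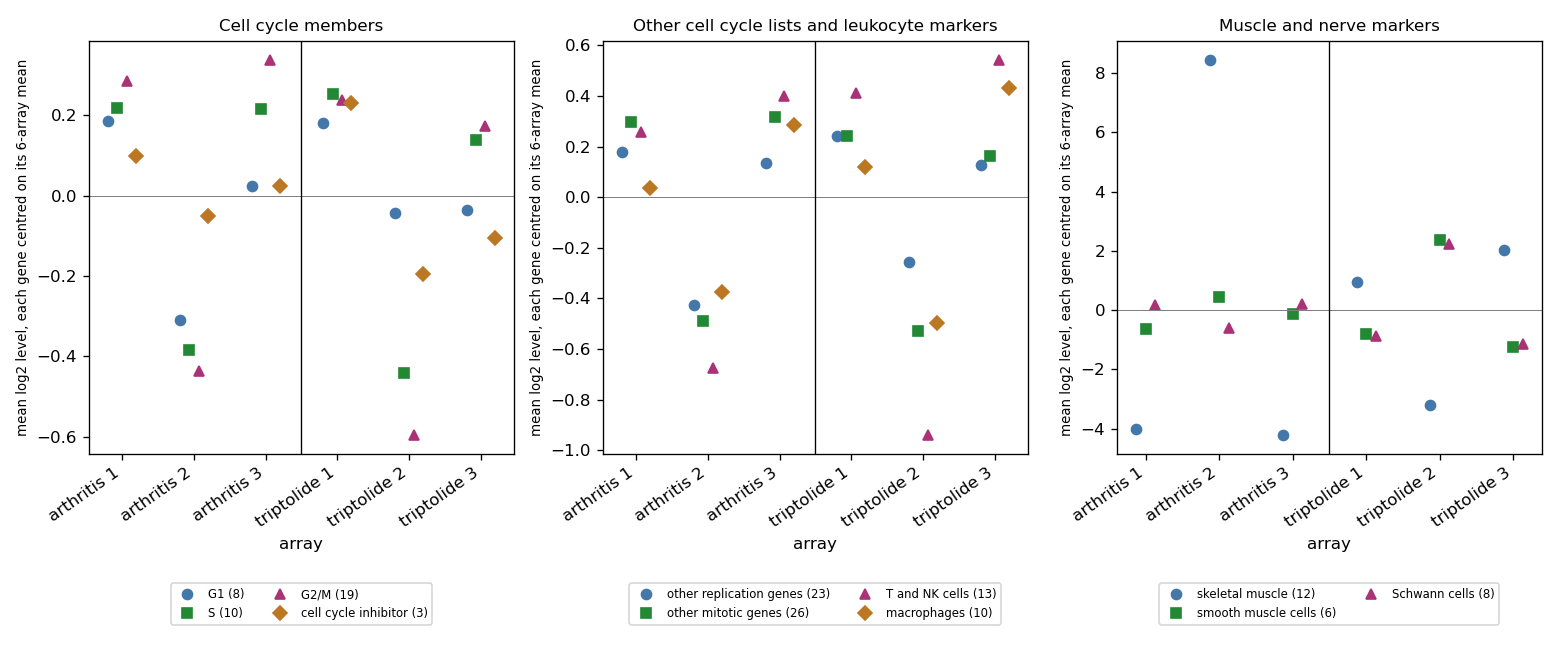
Mean log2 level per array of the member phases (left), other cell cycle lists with T and NK cell and macrophage markers (middle), and muscle and Schwann cell markers (right), each gene centred on its 6-array mean, with the number of genes in brackets and a separate vertical scale in each panel. The S and G2/M means are below 0 on arthritis 2 and triptolide 2 only, as are the T and NK cell and macrophage means, while skeletal muscle reaches 8.45 on arthritis 2 and Schwann cell markers 2.24 on triptolide 2.

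With arthritis 1 and 3 set against triptolide 1 and 3, none of the 40 genes passed an adjusted or an unadjusted p of 0.05 by limma, while 24 of all probes passed the adjusted threshold and 11.2% the unadjusted one. The median difference was -0.072, with 28 genes lower and 12 higher and a range from -0.27 (Ccna2) to 0.41 (Cdkn1a). Groups of 2 did not overlap in 19 of the 40 genes (47.5%), beside 45.1% of all tested probes. These arrays also differed by group in cell type markers. Skeletal muscle markers were higher with triptolide in 12 of 12 (median 6.08). Schwann cell markers were lower in 8 of 8 (median -1.08), endothelial markers in 10 of 10 (-0.28) and smooth muscle markers in 6 of 6 (-0.83). T and NK cell markers were higher in 7 and lower in 6. The part of cell makeup in this comparison was not tested.

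The 3 inhibitors did not share a pattern. Cdkn1a encodes p21, a target of p53 that blocks cyclin-dependent kinases. It read 2.95, 3.25 and 2.76 in arthritis and 3.77, 2.47 and 2.76 with triptolide, with triptolide 1 the highest and triptolide 2 the lowest of the 6 arrays. Its difference was 0.013 (SE 0.36), and 0.79 with slide as a block (limma unadjusted p = 0.039), where only triptolide 1 counts for the treatment. A dimmer Cdkn1a probe gave -0.10 (SE 0.51).

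Cdkn1b encodes p27, which holds cells in quiescence. It read 2.10, 2.20 and 2.27 in arthritis and 1.95, 2.37 and 1.98 with triptolide, a difference of -0.089 (SE 0.17). Its second probe gave 0.17 (SE 0.25), and triptolide 2 was the highest array on both. Cdkn2c encodes p18, an inhibitor of Cdk4 and Cdk6. It read -0.18, -1.02 and -0.39 in arthritis and -0.46, -0.85 and -0.48 with triptolide, low on both arrays numbered 2 as the S and G2/M genes were, with a difference of -0.066 (SE 0.26).

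Of the 20 genes with at least 2 tested probes, all probes gave 1 direction in 13 and opposite directions in 7 (Cdkn1a, Cdkn1b, Mcm4, Pcna, Rrm1, Rrm2 and Top2a). The median spread between probes of a gene was 0.11 and the largest, at Rrm1, was 0.49, both under the median half-width of the intervals. Of the 61 tested member probes, 4 had groups that did not overlap, beside 8.64% of all tested probes. These were Mcm7, the second probes of Ccnd1 and Ccne2, and 1 of Rrm1.

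Other genes of the same machinery, from lists that do not hold the 40, were read in the same fit. Of 23 tested replication genes (of 25 listed), none had an adjusted or unadjusted p under 0.05 by limma, with 17 higher, 6 lower and a median of 0.11. The smallest unadjusted p there belonged to Orc2 of the origin recognition complex (0.36, SE 0.23), Dut, which removes dUTP (-0.21, SE 0.15), Pold1 of DNA polymerase delta (0.25, SE 0.19) and the primase Prim1 (0.24, SE 0.20). Dut was the only 1 of the 23 whose groups did not overlap, beside 8.51% of tested genes. Arthritis 2 and triptolide 2 were the lowest of their groups in 20 of the 23.

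Of 26 tested mitotic genes (of 37 listed), again none had an adjusted or unadjusted p under 0.05 by limma, with 7 higher, 19 lower and a median of -0.078. In 25 of the 26 arthritis 2 and triptolide 2 were the lowest arrays of their groups. The phosphatase Cdc25b, which activates Cdk1, was the exception. It was also the only 1 of the 26 whose groups did not overlap, beside 8.51% of tested genes. Cdc25b read -1.08, -1.55 and -1.15 in arthritis and -0.94, -0.82 and -0.91 with triptolide (0.37, SE 0.18, limma unadjusted p = 0.079). The differences at Kif2c, Tpx2 and Racgap1, which act on spindle microtubules and in cytokinesis, were -0.35 (SE 0.34), -0.30 (SE 0.23) and -0.28 (SE 0.40).

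The regulators of the E2F switch (13 tested of 16 listed) had a median of -0.11, with 6 higher, 7 lower and none at an adjusted or unadjusted p under 0.05 by limma. Lin54, a DNA-binding subunit of the DREAM complex, was higher by 0.27 (SE 0.13) and E2f3 by 0.28 (SE 0.18). These were the 2 of the 13 genes whose groups did not overlap, beside 8.51% of tested genes. The differences at Tfdp1, the partner of E2F, and at Rb1, the retinoblastoma gene, were -0.32 (SE 0.21) and -0.27 (SE 0.19). Dimmer probes gave 0.25 at E2f3, -0.40 at Tfdp1 and -0.66 at Rb1, so the size at Rb1 depends on the probe.

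Of 15 tested genes among other inhibitors and p53 targets (of 17 listed), 6 were higher and 9 lower, with a median of -0.054. None passed the adjusted threshold and 2 had an unadjusted p under 0.05 by limma, beside 2.98% of tested genes (1.99% higher and 0.987% lower). Cdkn2a, whose locus encodes the inhibitor p16 and Arf, read -2.59, -3.46 and -3.01 in arthritis and -2.25, -2.40 and -2.22 with triptolide. All triptolide arrays were above all arthritis arrays, a difference of 0.73 (SE 0.24, limma unadjusted p = 0.022, adjusted p = 0.994) that was 0.51 to 0.94 when single arrays were left out. Which transcript of the locus the probe reads was not determined.

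Sesn1, a p53 target of the stress response, went the other way. It read -0.050, 0.57 and 0.058 in arthritis and -0.42, -0.42 and -0.35 with triptolide, a difference of -0.59 (SE 0.20, limma unadjusted p = 0.025, adjusted p = 0.994). With single arrays left out it was -0.71 to -0.40. Gadd45b, a stress-induced gene, differed by 0.47 (SE 0.22) without overlap. Groups did not overlap in 3 of the 15 genes, Cdkn2a, Sesn1 and Gadd45b, beside 8.51% of tested genes. Ccng1, a p53 target, differed by -0.73 (SE 0.51), but it read 4.61 in arthritis 2 and 2.80 to 2.94 in arthritis 1 and 3, and with arrays 1 and 3 only the difference was 0.042.

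**Figure D5:**
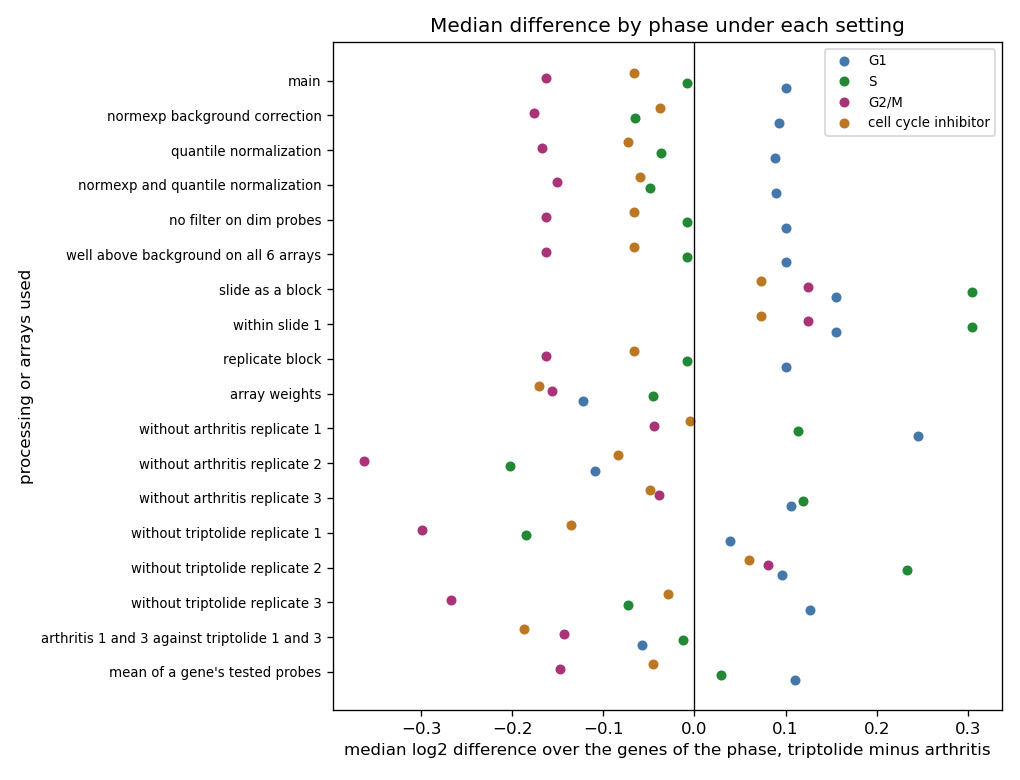
Median log2 difference over the genes of each phase (points, coloured by phase), triptolide minus arthritis, under each way of processing the arrays and each choice of arrays (rows). The G2/M median is -0.16 with all arrays, -0.36 without arthritis 2 and 0.081 without triptolide 2, and all 4 medians are above 0 with slide as a block.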

How the data were processed

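Spot intensity in the deposited scanner files is linear, background-subtracted and detrended within each array but not normalized between arrays, and the authors' series table holds log2 values for 167 rows. Per the file headers, Agilent Feature Extraction 10.7.3.1 wrote them and probes lie on rn4, whereas the submitters' processing notes name version 9.1. The normalization, centring and scale of the series table are not given in the sources used here (column medians 4.68 to 5.54), and only its Mcm7 row was used.

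Control and outlier spots were left out, log2 intensity was taken relative to each array's 75th percentile, and spots of a probe were averaged. The test took the 25776 of 41012 probes that exceeded background (the scanner's well-above-background flag) on 3 or more of 6 arrays, with limma 3.58.1 in R 4.3.3 (Benjamini-Hochberg over these probes, threshold 0.05). The brightest probe stands for a gene, which left 11747 tested genes. Names came from RefSeq by accession (18028 probes), symbol (3169) or synonym (402). The other 19413 probes had no settled symbol, so they count among the probes but not among the genes. The fitting code was run on simulated data with independent arrays and the same spread for every probe. That checks the code only, since arrays here deviated together over many genes.

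All 40 members are named. Values on every array are given for those whose groups did not overlap, the 4 of each phase with the smallest unadjusted p, and Mki67, Top2a, Pcna, Ccnd1, Cdk4 and the inhibitors. From each other list, up to 4 genes by smallest unadjusted p are named with their differences, and array values for 3 of them (Cdc25b, Cdkn2a and Sesn1) were added after their values were seen. Members and lists were chosen with earlier results of these data known. Alternatives were normexp background correction (offset 50), quantile normalization, other filters, slide or replicate number as a block, array weights, fewer arrays, and averaged probes.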

Additional observations from a re-analysis of the deposited data

How the results depend on the processing

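No member passed the adjusted threshold under any alternative run, and over all probes 24 did with arthritis 1 and 3 against triptolide 1 and 3, and 0 in each other fit. At a limma unadjusted p under 0.05 there was 1 member with normexp, Ccnd3, beside 3.66% of all probes. With normexp and quantile normalization together it was again Ccnd3 alone, beside 4.86%. With slide as a block it was Cdkn1a (beside 3.77%), and with averaged probes Ccnd1 (beside 3.29% over all). With single arrays left out there were 0 to 1, beside 2.4% to 6.43% of all probes. Members whose groups did not overlap numbered 0 with normexp, beside 9.63% of all probes. With averaged probes there were 3 (7.5%, beside 8.4% over all). Within slide 1, where triptolide 1 stands alone, there were 13 (32.5%, beside 52.7% of all probes). With arrays 1 and 3 only there were 19 (47.5%, beside 45.1%). Single arrays left out gave 2 to 15, beside 15.9% to 28% of all probes. The 15 (37.5%, beside 17.4% of all probes) came without arthritis 2. Fewer arrays make separate groups more frequent among all probes by construction, so these counts are given beside the shares over all probes. The cause of the changes among members was not tested.

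Since no member was called, its sign was treated as unsettled. Of 681 member differences under alternatives, 14 moved by more than the spread between replicates. The sign changed in 22 of 40 members with slide as a block, 21 without triptolide 2, 11 without arthritis 2 and 9 with arrays 1 and 3 only, and 2 members, Ccnd1 and Cdc20, kept it in every setting. With the replicate number as a block, 0 members passed either threshold, the median over members stayed at -0.076 and 1066 of all probes had an unadjusted p under 0.05, against 835 without it. With that block the SE at Mki67 was 0.15, against 0.39 without it, and the SE at Ccnd1 was 0.23 in both. Deviations of same-numbered arrays correlated at -0.16, -0.13 and 0.00082. These correlations run over all tested probes with 3 arrays a group, so they cannot decide whether the numbers pair the samples. Array weights gave a member median of -0.13. The SE of the difference at Pcna was 0.28 with all arrays and 0.13 with arrays 1 and 3 only. The arrays left out there held the lowest Pcna value of each group, so a smaller SE followed from that choice.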
